A study of Mus musculus with 18 samples.

Results

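RAB proteins are the largest family of small GTPases, and each marks particular membranes of the cell. In the GTP-bound form a RAB recruits effectors that move, tether or fuse vesicles. Exchange factors (GEFs) load the GTP, GTPase-activating proteins (GAPs) end the active state, and a prenyl anchor with its GDI carrier holds the protein on or off the membrane. The family was taken as every protein-coding gene with a symbol of the form Rab, a number and at most a letter and a digit, measured at a level of 3 CPM or more (CPM, the count scaled to a fixed library total) in at least 3 of 18 libraries. Of 59 such genes 46 met this level, among 12705 genes tested.

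The libraries came from polysome profiling of V6.5 mouse embryonic stem cells (ESCs), a line grown here in serum medium that held LIF and 2i inhibitors. Ribosomes were held on mRNA with cycloheximide, and each lysate was separated on a sucrose gradient into monosomes, low polysomes of 2 to 4 ribosomes and high polysomes of 4 or more. Wild-type (WT) cells gave 3 gradients and Ddx6 knockout (KO) cells, which lack an RNA helicase of translational repression and mRNA decay, gave 3. KO gradient 1 was from CRISPR clone 1, and KO gradients 2 and 3 were both from clone 2, so the KO arm holds 2 clones. The ratio of high polysome to monosome is called the translation level, as in the study. CPM here counts 3′ ends of transcripts within a fraction, so a ratio describes the distribution of an mRNA relative to all others and not its amount per cell.

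Library totals ran from 2543617 to 11474550 counts, and the WT monosome libraries held the lowest 3. Ddx6 itself was 177 ± 23.5 CPM (SD, n = 9 libraries) in WT and 33.5 ± 25.4 CPM in KO, with the highest KO library at 82.7 and the lowest WT library at 143. All 10 ESC markers were measured, with a summed level of 2450 to 5883 CPM in WT and 2585 to 4365 CPM in KO. The summed level of 4 primed epiblast markers was 103 to 149 CPM in WT and 32.7 to 80.4 CPM in KO, with Fgf5 under 1 CPM in every library. The part of this difference in the RAB values was not tested. Neuroectoderm markers summed to 44.4 to 55.5 CPM in WT and 30.7 to 76.2 CPM in KO, and endoderm, mesoderm and fibroblast marker sums were at most 11 CPM in any library.

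The family is close to uniform in coding length, from 585 to 846 nt with a median of 648 nt, and 41 of the 46 coding sequences were under 700 nt. The 3′ UTRs differ far more, with a longest annotated form of 65 to 8596 nt and a median of 1950 nt. ESCs express a family of microRNAs from the miR-290 and miR-302 clusters that share 1 seed and pair with 3′ UTRs, and DDX6 takes part in microRNA silencing. Their mature forms are shown because the seed fixes which RAB 3′ UTRs can carry a match. The sequences are RefSeq's on GRCm38.p6, with the seed (bases 2 to 8) in capitals. The 3 of the miR-290 cluster lie on the plus strand at chr7:3218968-3218989, chr7:3220691-3220712 and chr7:3220815-3220837, and the 2 of the miR-302 cluster on the plus strand at chr3:127545275-127545297 and chr3:127545665-127545687.
mmu-miR-291a-3p: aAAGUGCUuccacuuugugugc
mmu-miR-294-3p: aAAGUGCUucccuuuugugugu
mmu-miR-295-3p: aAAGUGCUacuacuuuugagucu
mmu-miR-302b-3p: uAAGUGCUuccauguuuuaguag
mmu-miR-302d-3p: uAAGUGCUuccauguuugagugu

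Matches were searched on the sense strand of the longest annotated 3′ UTR as AGCACTTA (8mer), AGCACTT without the final A (7mer-m8) and GCACTTA without the first A (7mer-A1), so that no site counted under more than 1 kind. A match was found in 12 of 46 RAB 3′ UTRs (26.1%) and in 20.6% of 11769 protein-coding genes, whose median 3′ UTR was shorter, at 1132 nt. Among 3′ UTRs of 1000 to 3000 nt the shares were 20.8% of 24 RAB genes and 24.9% of 4558 protein-coding genes, under 1000 nt they were 16.7% of 12 and 6.5% of 5397, and from 3000 nt they were 50% of 10 and 51.7% of 1814. The 16 sites comprised 2 8mers, 11 7mer-m8 and 3 7mer-A1. Of the 6 members whose translation level fell in KO, 4 hold a site. These are shown on GRCm38 with the 8mer of Rab13, the match in capitals, to let a reader set the sites beside the KO values given further on. Rab11a lies on the minus strand at chr9:64715637-64715658, Rab7 on the minus strand at chr6:87999196-87999217, Rab8a on the plus strand at chr8:72182088-72182109, Rab29 on the plus strand at chr1:131872864-131872885 and Rab13 on the plus strand at chr3:90226234-90226255, all in the 3′ UTR exon.
Rab11a: tggataatattaAGCACTTAcc
Rab7: cttgcttcctggAGCACTTccc
Rab8a: ttggtggttaagAGCACTTgtt
Rab29: gaattaaaagtgAGCACTTgtg
Rab13: tcagtaaacagcAGCACTTAgt
Rab2a and Rab18, the other members whose translation level fell, have no match in their annotated 3′ UTRs. Rab22a has 4 sites and Rab8b has 2, and neither was called. Among members with a match but no call, the log2 KO change in translation level ran from -0.74 in Rab30 to 0.49 in Rab32. Both of these averaged under 10 CPM. Rab6a, also with a match, changed by -0.15.

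Levels within the family spanned a 191-fold range of mean CPM over the 18 libraries. The 5 most abundant, Rab8a of post-Golgi secretion, Rab5c of early endosomes, Rab14 of Golgi and endosome traffic, Rab7 of late endosomes and Rab1a of ER to Golgi transport, held 39% of the summed RAB level. Mean levels were 311 CPM for Rab8a, 294 CPM for Rab5c, 231 CPM for Rab14, 171 CPM for Rab7 and 169 CPM for Rab1a, and 33 members averaged at least 10 CPM. The other 13 (Rab3b, Rab3d, Rab5a, Rab8b, Rab13, Rab25, Rab26, Rab30, Rab32, Rab37, Rab39, Rab42 and Rab43) averaged less, so their values rest on few counts. Just outside the level of the rule, Rab17 and Rab33a reached 2.79 and 2.75 CPM in their third-highest library, and just inside it, Rab42 and Rab25 reached 3.54 and 3.97 CPM.

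The 13 genes under the rule were Rab3c, Rab4b, Rab7b, Rab9b, Rab17, Rab19, Rab20, Rab27b, Rab33a, Rab36, Rab39b, Rab40b and Rab44. Of these Rab9b had 0 counts in all 18 libraries, and 12 had some. The level was met through 1 genotype only by 3 members, Rab25 and Rab39 through WT and Rab32 through KO, so that a difference between genotypes is in part built into their selection. Rab42 met it only with both genotypes together.

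In WT cells the family lay toward the high polysome. Of 46 members 23 had a translation level above 0 on the log2 scale by limma (28.9% of all genes tested) and 9 had one below 0 (32.2% of all genes). The median was 0.45, against -0.018 over all genes and 0.26 over 1456 other protein-coding genes in the same range of coding length. The highest mean CPM was in the high polysome for 24 members (52.2%, against 39.9% of protein-coding genes), in the low polysome for 11 and in the monosome for 11. Of the 24, 18 had their highest value there in all 3 gradients. The median member stood at 0.499, 0.367 and 0.346 in WT gradients 1 to 3, against 0.058, 0.0625 and 0.0672 for protein-coding genes.

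By role, the median WT translation level was 0.78 for 10 secretory RABs, 0.71 for 6 recycling RABs, 0.69 for 12 ER and Golgi RABs, 0.19 for 7 early endosome RABs and 0.17 for 8 late endosome, lysosome and autophagy RABs, with members on both sides of 0 in each of these roles. The highest single members are described first. Rab7, which drives fusion of late endosomes with lysosomes, was 45.0, 72.5 and 47.2 CPM in the WT monosome and 232, 195 and 212 CPM in the high polysome of gradients 1 to 3. Its 2 fractions did not overlap, and the log2 ratio was 1.96 ± 0.15 (SE, limma adjusted p = 1.06e-09). Rab1a was 1.96 ± 0.22 (limma adjusted p = 2.09e-07). Rab3b, which serves regulated exocytosis, was 1.87 ± 0.26 at a mean of 6.99 CPM. Rab2a of the ER-Golgi interface was 1.75 ± 0.15 and Rab18 of the ER and lipid droplets was 1.65 ± 0.19. Rab3a and Rab3d, also of secretory vesicles, and Rab11a of recycling endosomes were each 1.49, with SEs of 0.20, 0.32 and 0.14. Rab38 of lysosome-related organelles was 1.36 ± 0.24 and Rab9, which returns cargo from late endosomes to the Golgi, was 1.25 ± 0.25.

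The 9 members held toward the monosome were of mixed compartments. Rab43, a Golgi RAB, was 5.58, 5.34 and 5.39 CPM in the WT monosome and 0, 0.50 and 1.22 CPM in the high polysome. The ratio of -3.82 ± 0.69 (limma adjusted p = 6.77e-05) rests on 0, 5 and 13 high-polysome counts, and the per-gradient values with 0.5 CPM added averaged -2.64 ± 0.92 (SD, n = 3). Rab28, a ciliary RAB, was 71.7, 67.6 and 55.3 CPM in the WT monosome against 12.7, 11.2 and 14.6 CPM in the high polysome, a log2 ratio of -2.32 ± 0.22 (limma adjusted p = 1.79e-08). Rab15, an endosomal recycling RAB, was 95.6, 96.4 and 80.8 CPM against 25.2, 20.2 and 22.98 CPM, a log2 ratio of -2.0 ± 0.18 (limma adjusted p = 5.43e-09). In all 3 genes every monosome library was above every high-polysome library. Rab26 of secretory granules was -1.64 ± 0.28, Rab29, which acts with LRRK2 at lysosomes and the trans-Golgi, was -1.07 ± 0.15, and Rab24 of autophagy was -0.996 ± 0.136. Rab37, Rab42 and Rab22a, the last an early endosome RAB, were -0.99, -0.92 and -0.71. The calls for Rab37 and Rab42 were lost without WT gradient 1 or without WT gradient 2.

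**Figure D1:**
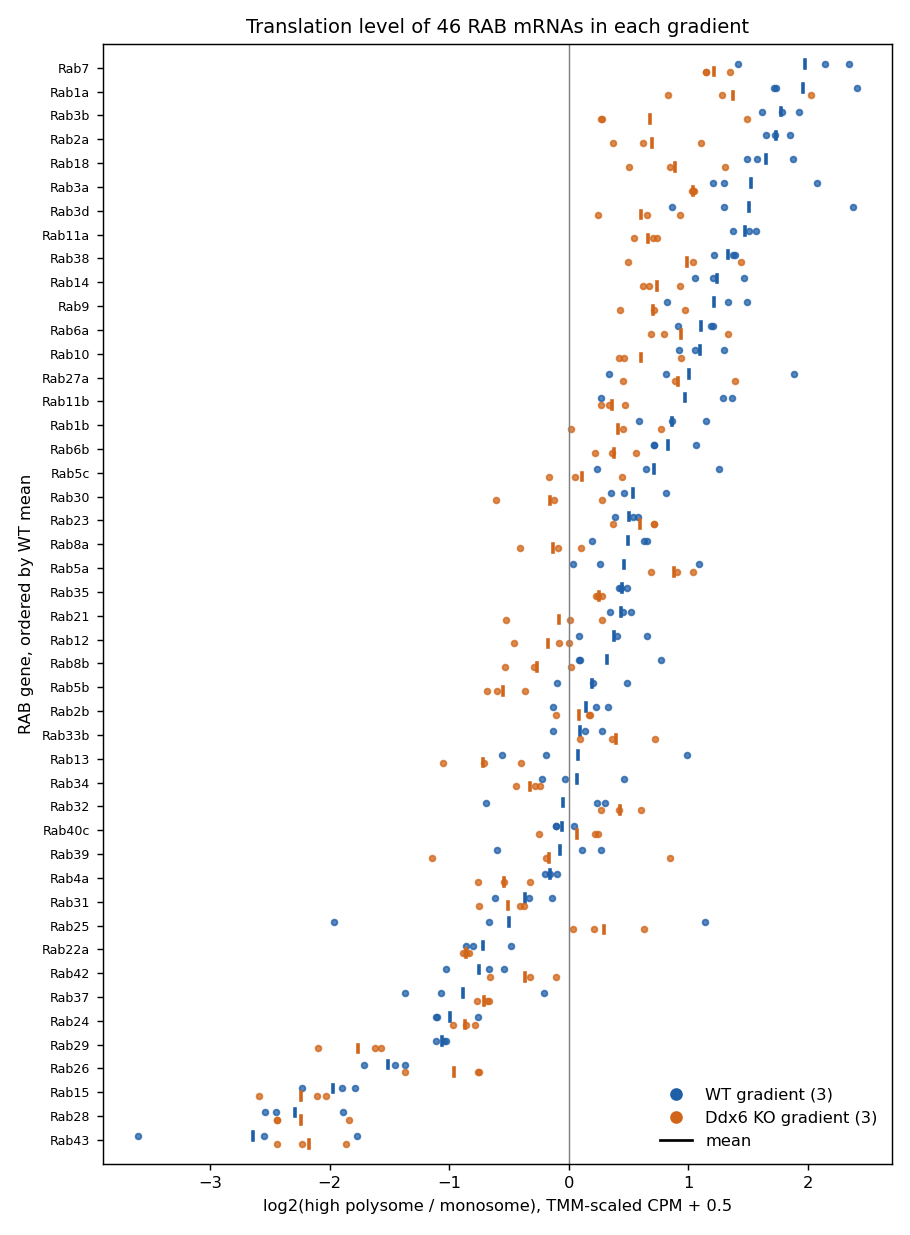
Translation level, log2(high polysome / monosome) with 0.5 CPM added, of the 46 RAB mRNAs (rows, ordered by the WT mean). Points are single gradients (3 WT in blue, 3 KO in orange) and bars are means. WT means run from -2.64 for Rab43 to 1.98 for Rab7, and the KO mean lies to the left of WT for most rows in the upper part.

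Members of a paralog group were compared within each gradient. Rab2a exceeded Rab2b in translation level by 1.78, 1.52 and 1.49 on the log2 scale in WT gradients 1 to 3, a mean of 1.60 ± 0.16 (SD, n = 3). In KO the same difference was 0.94, 0.44 and 0.47. Rab1a exceeded Rab1b by 1.09 ± 0.65 in WT and 0.96 ± 0.91 in KO, with 1 sign in every gradient. Rab6a exceeded Rab6b, both of Golgi traffic, by 0.27 ± 0.20 in WT and 0.56 ± 0.22 in KO. Rab5a exceeded Rab5b by 0.27 ± 0.29 in WT and by 1.43 ± 0.07 in KO, although Rab5a had a mean under 10 CPM. Of 11 paralog pairs compared, 5 had a single sign in all 3 WT gradients and 8 in all 3 KO gradients, and no test was made between genes. The other pair of that kind in WT was Rab11a over Rab11b, at 0.51 ± 0.69.

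Within the family, WT translation level was lower where the 3′ UTR was richer in G and C. Spearman's coefficient was -0.41 over 46 members and -0.47 over the 33 of at least 10 CPM, against -0.14 over 11741 protein-coding genes. The 23 members of lower G+C (33.4 to 45.6%) had a median log2 level of 0.55, and the 23 of higher G+C (45.9 to 59.9%) one of -0.046. The coefficient was 0.22 with 3′ UTR length and 0.40 with mean CPM. These values describe genes measured in the same libraries, are given without a test, and were not separated from one another. Exceptions stood at both ends. Rab1b had the highest G+C (59.9%) with a level of 0.90 ± 0.18, and Rab28 had 41.5% with -2.32.

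**Figure D2:**
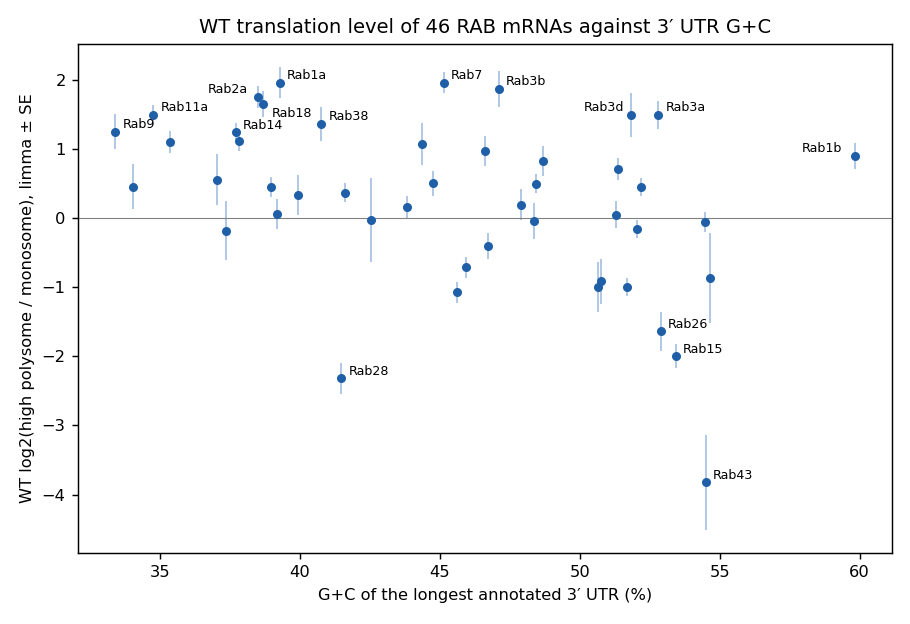
WT translation level (limma log2 high polysome over monosome, bars SE) of each of the 46 RAB mRNAs against the G+C content of its longest annotated 3′ UTR in percent. Members up to 45.6% G+C have a median of 0.55 and those above it have one of -0.046, with wide scatter in both.

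The comparison of translation level between genotypes asked whether loss of DDX6 moved RAB mRNAs between monosomes and polysomes. The level fell in KO for 6 of 46 members by limma (7.09% of all genes fell) and rose for 0 (10.7% of all genes rose). Without the adjustment 17 members had a limma p under 0.05, against 4179 of all 12705 genes. Of 1456 other protein-coding genes in the range of coding length of the members, 512 did. In this comparison 0 members rose under DESeq2, edgeR or any other setting tried. Over all genes 1357 rose and 901 fell. Scaling by library size alone moved the median of all genes from 0.0225 to -0.10, with 936 genes raised and 1386 lowered, and 13 members then fell. The median change of the members was -0.40 against 0.0225 over all genes. It was -0.37 over the 1456 other protein-coding genes in the same range of coding length, of which 16.8% fell and 1.3% rose. The median of the family was close to that of other mRNAs of its length, as the plot of KO change against coding length shows.

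**Figure D3:**
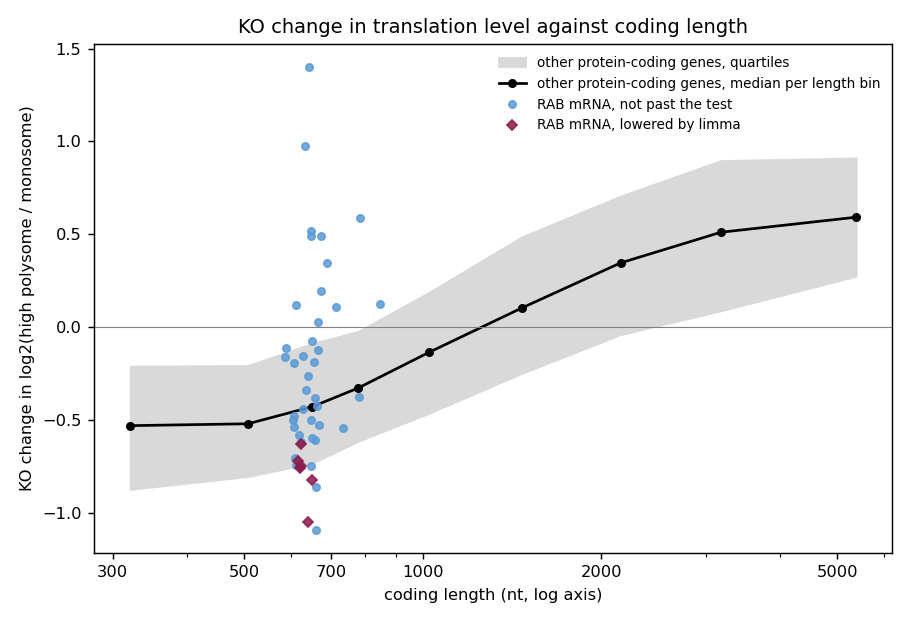
KO change in log2(high polysome / monosome) against coding length in nt (log axis). The black line is the median of other protein-coding genes in 9 length bins and the band their quartiles. Diamonds are the 6 RAB mRNAs lowered by limma and blue points the other members. In the bin of 600 to 700 nt the median was -0.43 for 612 other genes and -0.48 for 39 RAB genes.

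Rab2a (ENSMUSG00000047187.9, chr4:8535644-8607778, plus strand, GRCm38) had the largest fall of the 6. In WT it was 66.5, 71.8 and 62.2 CPM in the monosome and 210, 261 and 207 CPM in the high polysome, and in KO 102, 146 and 135 CPM in the monosome and 221, 226 and 175 CPM in the high polysome. All KO monosome libraries were above all WT ones, while the high-polysome groups overlapped. The translation level was 1.74 ± 0.10 in WT and 0.70 ± 0.37 in KO (SD, n = 3 gradients), a change of -1.05 ± 0.21 (SE, limma adjusted p = 0.00268). It was the 1 call of the 6 kept without each of the 6 gradients in turn.

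Rab11a (ENSMUSG00000004771.12, chr9:64715299-64737758, minus strand), the housekeeping RAB of recycling endosomes, moved in both fractions. Its monosome level was 64.1, 60.9 and 63.4 CPM in WT and 81.4, 86.9 and 91.8 CPM in KO, and its high-polysome level was 184, 181 and 166 CPM in WT and 133, 146 and 135 CPM in KO. Neither fraction overlapped between genotypes, and the directions were opposite. Both single-fraction calls were lost without WT gradient 2, without KO gradient 3 and after the coding-length trend was taken out, and the high-polysome call also without KO gradient 1 and at equal depth. The translation level of 1.38 to 1.57 in WT and 0.55 to 0.74 in KO gave a change of -0.82 ± 0.19 (limma adjusted p = 0.00677). Without KO gradient 3 the call was lost. Its paralog Rab11b changed by -0.61 ± 0.29 (limma adjusted p = 0.151).

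Rab7 (ENSMUSG00000079477.9, chr6:87999106-88045270, minus strand) rose in every fraction, least in the high polysome. It was 137, 124 and 145 CPM in the KO monosome and 303, 317 and 323 CPM in the KO high polysome, above every WT value of the same fraction. The change in translation level was -0.75 ± 0.21 (limma adjusted p = 0.0174), and the call was lost when WT gradient 1 or 3 or KO gradient 3 was left out. Rab8a (ENSMUSG00000003037.16, chr8:72161200-72183904, plus strand), which carries post-Golgi cargo to the plasma membrane and the cilium, was 200, 212 and 167 CPM in the WT monosome and 388, 303 and 290 CPM in the KO monosome. In the high polysome it was 315, 243 and 260 CPM in WT and 292, 285 and 311 CPM in KO, where the groups overlapped. Its change was -0.63 ± 0.20 (limma adjusted p = 0.0322), lost when WT gradient 1 or 3 or KO gradient 1 or 2 was left out.

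Rab18 (ENSMUSG00000073639.5) was 58.5, 68.5 and 63.2 CPM in the WT monosome and 62.5, 87.4 and 92.1 CPM in the KO monosome, overlapping groups. Its high-polysome level was 176, 254 and 178 CPM in WT and 156, 158 and 131 CPM in KO, all below WT. The change of -0.76 ± 0.26 (limma adjusted p = 0.0462) was the nearest to the threshold and was kept only without KO gradient 1. Rab29 (ENSMUSG00000026433.13, chr1:131867224-131872887, plus strand) was 21.8, 20.9 and 19.4 CPM in the WT high polysome and 11.8, 15.6 and 14.5 CPM in the KO high polysome, without overlap, while its monosome groups overlapped. Its change was -0.72 ± 0.21 (limma adjusted p = 0.0241), kept without WT gradient 1 or KO gradient 2 and lost without any 1 of the other 4.

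**Figure D4:**
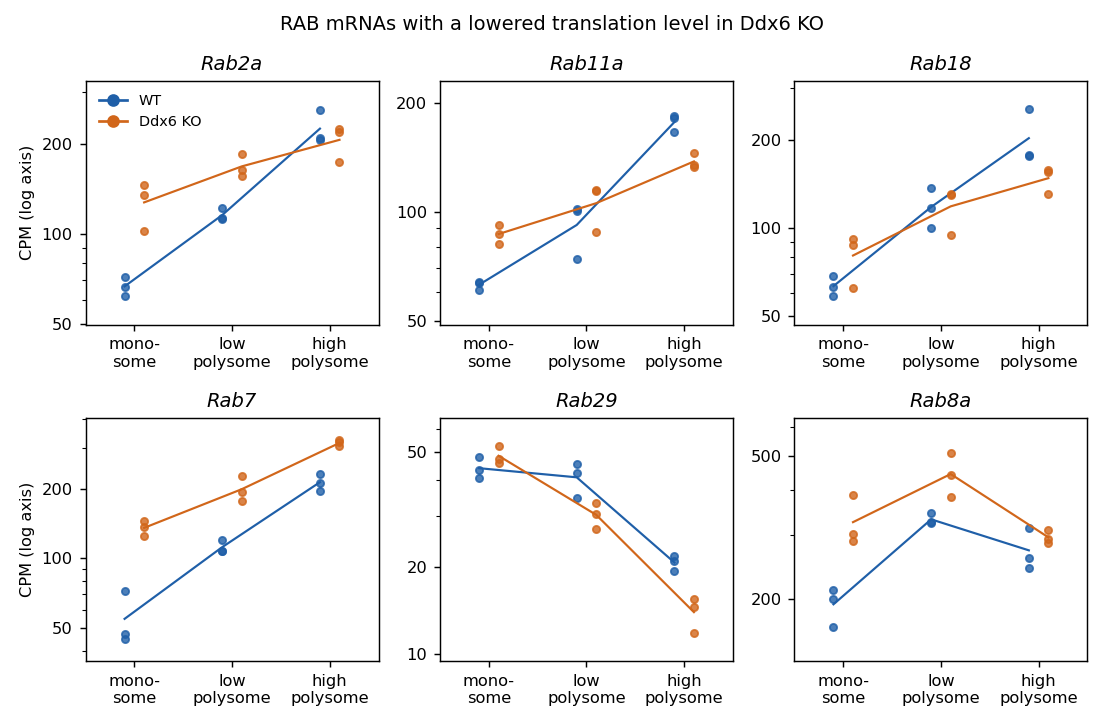
CPM (log axis) of the 6 RAB mRNAs whose translation level fell in KO, in monosome, low polysome and high polysome. Points are libraries, 3 per group, and lines join the means. KO exceeds WT in the monosome without overlap for Rab2a, Rab11a, Rab7 and Rab8a, and lies below WT in the high polysome for Rab11a, Rab18 and Rab29.

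Once the trend of the change on coding length over all protein-coding genes was removed, 0 members passed limma (7 at an unadjusted p under 0.05) and the median change was -0.034. The 6 calls are thus relative to all genes. Rab2a kept the largest remainder of the 6, -0.64 ± 0.20 (limma adjusted p = 0.0607). By role, the 2 calls of the 12 ER and Golgi RABs were Rab2a and Rab18, and the 1 of 6 recycling RABs was Rab11a. The 2 of 8 late endosome, lysosome and autophagy RABs were Rab7 and Rab29, and the 1 of 10 secretory RABs was Rab8a. There were 0 of 7 early endosome RABs. Of these 7, 4 had an unadjusted limma p under 0.05 before the trend was removed. So did 4179 of 12705 genes tested and 512 of 1456 other protein-coding genes in the same range of coding length. Members with a seed match had a median change of -0.62 and those without one of -0.30, a description with no test. The same medians were not made over protein-coding genes. The study reported raised translation levels in KO for conserved targets of this microRNA family as a group, a set not used here. Rab13, with an 8mer, changed by -0.70 ± 0.34 (limma adjusted p = 0.15) and Rab22a, with 4 sites, by -0.16 ± 0.20 (limma adjusted p = 0.614).

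By single gradients, KO lay wholly below WT in translation level for 18 members (18.6% of protein-coding genes), wholly above for 1, Rab26 (21.4% of protein-coding genes), and overlapped for 27. These shares were not made for other protein-coding genes in the same range of coding length. Of those 1456 genes, 1131 had a negative KO change by limma and 325 a positive one. The SD between members was 0.827 to 1.05 over the 3 KO gradients and 1.03 to 1.25 over the 3 WT gradients, so that the groups overlapped. The median member was 0.258, 0.242 and 0.161 in KO gradients 1 to 3, all below the 3 WT medians. Clone 1 is a single gradient, so a difference between clones cannot be told apart from the spread between gradients.

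In the ratio of low polysome to monosome, 0 members rose and 0 fell by limma (2.31% and 2.39% of all genes). At an unadjusted limma p under 0.05 there were 7 members, against 2635 of all 12705 genes. DESeq2 called 3 members lowered and edgeR 0, against 534 and 303 of all genes. The median change of the members was -0.06. With the gradient as a replicate block limma called 1 member lowered, Rab15, against 390 of all genes. Over all genes 294 rose and 304 fell, and 229 and 494 with scaling by library size alone.

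Each fraction was then compared between genotypes on its own. In the monosome 13 members were higher in KO (18.6% of all genes) and 5 lower (20.1% of all genes), with a median of 0.19. Among other protein-coding genes in the same length range 29.8% were higher and 12.5% lower, with a median of 0.19. In the high polysome there were 6 members higher (25.3% of all genes) and 13 lower (21.1% of all genes) and a median of -0.12. For the other genes of like length these shares were 16.6% and 29.2%, with a median of -0.20. With the trend on coding length removed, the counts were 7 higher and 10 lower in the monosome and 8 higher and 5 lower in the high polysome. In the low polysome 13 were higher (23.4%) and 7 lower (24.3%). Without the 4 members that did not meet the CPM level in both genotypes separately, the counts of raised and lowered were 13 and 3 for the monosome, 5 and 12 in the high polysome and 12 and 5 in the low polysome. The 3 comparisons use different libraries of the same gradients.

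Rab6b, Rab7 and Rab8b were higher in KO in all 3 fractions. Rab6b, the Golgi paralog best known from neurons, was 22.7, 26.0 and 25.5 CPM in the WT monosome and 62.7, 45.0 and 49.6 CPM in the KO monosome. Its log2 changes were 1.05 ± 0.22, 0.92 ± 0.18 and 0.61 ± 0.18 from monosome to low to high polysome (limma adjusted p of 0.000877, 0.000308 and 0.00817). Its ubiquitous paralog Rab6a passed in none. Rab8b was 4.78, 6.27 and 4.97 CPM in the WT monosome and 11.9, 12.5 and 12.8 CPM in the KO monosome, a change of 1.18 ± 0.28 (limma adjusted p = 0.00256), with 1.13 ± 0.23 in the low polysome. Its high-polysome change of 0.56 ± 0.21 (limma adjusted p = 0.0353) was lost in 6 of 9 other settings. Rab7 changed by 1.31 ± 0.16, 0.82 ± 0.14 and 0.57 ± 0.14.

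Rab3b was lower in KO in all 3 fractions. Rab3b was 21.95, 16.8 and 19.6 CPM in the WT high polysome and 3.34, 5.98 and 3.68 CPM in the KO high polysome, a log2 change of -2.19 ± 0.21 (limma adjusted p = 9.64e-08). In the monosome it was 5.97, 5.11 and 4.77 CPM in WT and 2.68, 1.81 and 2.95 CPM in KO, a change of -1.09 ± 0.34 (limma adjusted p = 0.0145), and the low polysome gave -1.12 ± 0.26. Its paralogs were lowered by limma in no fraction. Rab3d was higher in the KO monosome, by 1.04 ± 0.33 (limma adjusted p = 0.0165), and Rab3a passed in no fraction. Rab39, listed here with the ER and Golgi RABs, had 3 to 53 counts per library and differed by -1.73 ± 0.54, -1.58 ± 0.49 and -1.92 ± 0.49. It met the CPM level through WT libraries only, so these values are a description. Rab39 overlaps the pseudogene Rps6-ps3 on its strand.

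Rab25 met the CPM level through WT only and Rab32 through KO only, so their differences are given as a description with no test. Rab25, the epithelial relative of Rab11, was 1.59, 4.18 and 2.69 CPM in the WT monosome and 0.510, 0.242 and 0.385 CPM in the KO monosome, a difference of -2.78 ± 0.87, with -2.76 ± 0.79 in the low polysome. These rest on 4 to 33 WT counts and 0 to 14 KO counts per library. Rab32, of mitochondria and lysosome-related organelles, was 2.57, 1.27 and 0.507 CPM in the WT low polysome and 8.40, 3.68 and 4.03 CPM in the KO low polysome, a difference of 1.97 ± 0.52, with 1.61 ± 0.43 in the high polysome. The KO values of both genes were apart from WT in these fractions, which their selection through 1 genotype in part builds in. Rab15 was 209, 159 and 158 CPM in the KO monosome, above every WT library, a change of 0.94 ± 0.16 there and 0.68 ± 0.18 in the high polysome.

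Of the remaining monosome calls, Rab2a was higher by 0.92 ± 0.16, Rab8a by 0.76 ± 0.14, Rab5b of early endosomes by 0.71 ± 0.23, Rab1b by 0.62 ± 0.19 and Rab10, which mediates exocytosis of the glucose transporter GLUT4, by 0.59 ± 0.14. Rab11a, Rab14 and Rab12, a lysosomal RAB, were higher by 0.46, 0.45 and 0.42. Rab26 and Rab24 were at -0.68 ± 0.25 and -0.56 ± 0.14, and the Rab26 call was lost under edgeR and DESeq2. In the low polysome the other raised members were Rab37 (1.13), Rab27a of exosome and melanosome release (0.86), Rab33b of Golgi and autophagy (0.80), Rab10 (0.74), Rab5b (0.67), Rab1a (0.59), Rab2a (0.54), Rab8a (0.41) and Rab14 (0.35), with SEs of 0.13 to 0.40. The other lowered members there were Rab28 (-0.82), Rab26 (-0.76), Rab4a of fast recycling (-0.74) and Rab29 (-0.44).

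In the high polysome Rab33b was also higher, by 0.49 ± 0.17. That call was kept in 4 of 9 other settings and in 3 of 6 fits with 1 gradient left out. The lowered members beside Rab3b and Rab39 were led by Rab30 of the Golgi at -1.05 ± 0.31 (limma adjusted p = 0.00983), with a mean under 10 CPM, then Rab38 at -0.65 ± 0.19 and Rab4a at -0.61 ± 0.12. Rab29, Rab2b, Rab11b, Rab18, Rab24, Rab21 of integrin traffic, Rab35 of fast recycling and Rab11a lay between -0.57 and -0.36. Rab11b was lost under edgeR. Rab4a was 73.5, 84.6 and 77.9 CPM in WT and 51.8, 56.6 and 46.9 CPM in KO, without overlap, and shares its strand with the annotated gene Gm20388. In all, 8 members passed in both the monosome and the high polysome, 7 of them with 1 sign and Rab11a with opposite signs. Another 21 passed in 1 of these fractions and 17 in neither. Rab39 is among the 8, and Rab25 and Rab32 are among the 21, though each met the CPM level through 1 genotype only. These counts are thus a description, and the same counts over all genes were not made.

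**Figure D5:**
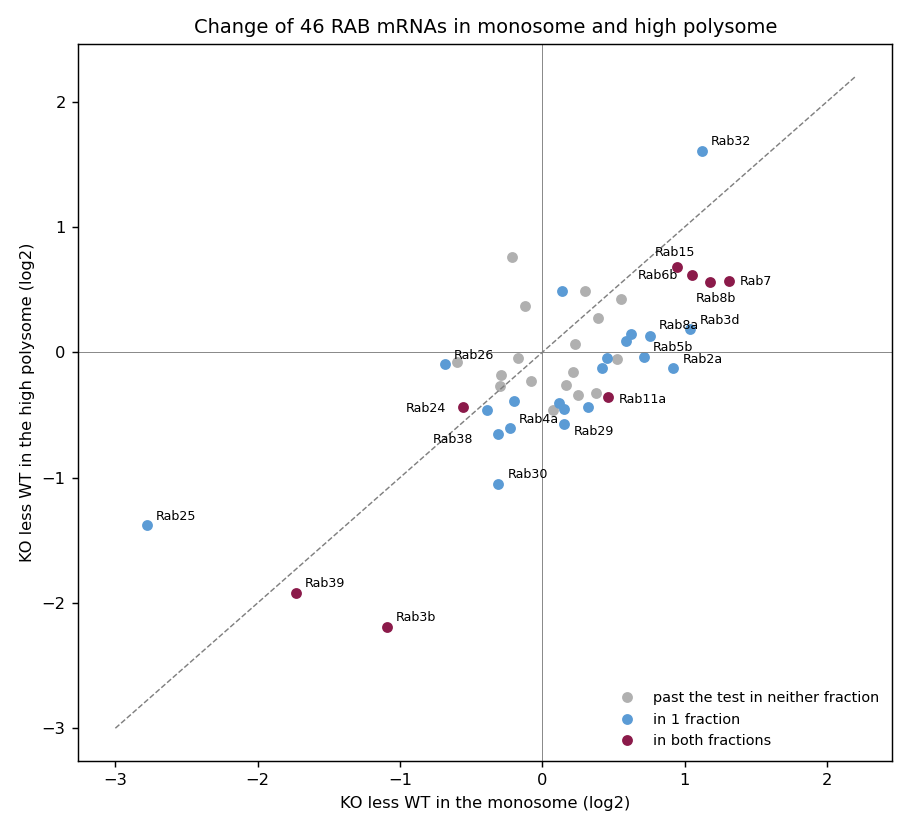
KO less WT (limma log2) of the 46 RAB mRNAs in the monosome (x) and the high polysome (y). The dashed line marks equal change. The 8 members past the test in both fractions are dark red, the 21 past it in 1 of them blue and the other 17 grey. Rab39, Rab25 and Rab32, counted among these, met the CPM level through 1 genotype only. Most points lie below the line, as 34 of 46 changes in translation level are negative. So are 1131 of 1456 for other protein-coding genes in the same range of coding length, and 6181 of 12705 over all genes. Rab11a is the dark red point at lower right of the origin.

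Summed over the family, RAB mRNAs made up 2201 ± 95.1 CPM (SD, n = 3) of the WT monosome and 2785 ± 65.4 CPM of the KO monosome. In the low polysome the sums were 2894 ± 59.2 and 3338 ± 90.4 CPM, and in the high polysome 3567 ± 188 and 3322 ± 48.1 CPM. The monosome and low-polysome groups did not overlap, and the high-polysome ranges of 3350 to 3681 CPM in WT and 3270 to 3365 CPM in KO overlapped. The high polysome held the highest mean CPM for 52.2% of members in WT and 41.3% in KO. For protein-coding genes these shares were 39.9% and 44.5%. The fraction with the highest mean CPM differed between WT and KO for 11 members, and such changes were not counted over all genes. For 7 it was the high polysome in WT and the low polysome (Rab1b, Rab5c, Rab8b, Rab10, Rab30 and Rab33b) or the monosome (Rab5b) in KO. The single gradients bore this out unevenly, since Rab5c and Rab10 had the high polysome highest in all 3 WT gradients and the low polysome in 2 of 3 KO gradients, while Rab1b had the high polysome highest in 1 of 3 WT gradients. The other 4, Rab13, Rab22a, Rab32 and Rab40c, went between other fractions, and of these Rab22a had its WT fraction highest in all 3 gradients, against 0 to 2 for the others.

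The genes that load, unload, anchor or are recruited by RABs were read from a list of 139, of which 130 were tested. Their median coding length was 2378 nt, and 120 of the 130 with a length exceeded the longest RAB coding sequence. In translation level 14 rose in KO (10.7% of all genes) and 7 fell (7.09%), with a median of 0.18. Protein-coding genes of 1800 to 2700 nt outside the RAB family, from which machinery genes were not taken out, had a median change of 0.35. The coding length of the effectors alone was not summarised. Effectors gave 8 of the rises and 1 of the falls among 40, with a median of 0.29, not above the 0.35 of genes of 1800 to 2700 nt. They were led by Pik3c3 (1.47 ± 0.35) and Pik3r4 (1.27 ± 0.22), the catalytic and regulatory subunits of the RAB5-linked PI3-kinase VPS34, and Mical1 (1.19 ± 0.36), and the effector that fell was Rilpl2 (-1.03 ± 0.27). Of 35 GAPs 3 rose and 0 fell, with 10 at an unadjusted limma p under 0.05, against 4179 of all 12705 genes. The GAPs were Rab3gap1 (1.06 ± 0.22), Tbc1d25 (0.91 ± 0.26) and Rabgap1 (0.65 ± 0.22). Of 46 GEFs 2 rose, Gapvd1 (0.99 ± 0.25) and Trappc12 (0.92 ± 0.29), and 4 fell. The largest falls were in Trappc2 (-1.96 ± 0.48), a TRAPP complex subunit at 4.11 CPM, the DENN-domain factor Dennd5a (-0.90 ± 0.26) and the TRAPP subunit Trappc5 (-0.64 ± 0.19). Of 9 prenylation and GDI genes Rabggta rose by 0.54 ± 0.19, and Rabac1 and Icmt fell, with values of -0.86 ± 0.20 and -0.66 ± 0.23.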

How the data were processed

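Per the file headers and the labels, the authors trimmed QuantSeq 3′ FWD reads with cutadapt 1.14, aligned them with STAR 2.5.3a to mm10 keeping uniquely mapped reads, and counted them on the sense strand per gene with featureCounts 1.5.3. The deposited values are raw counts. The other deposited column, the summed exon length in bases, was not used. Since multimapping reads were dropped, RABs that share sequence with a copy may be undercounted; the pseudogenes of Rab5a, Rab7, Rab9b and Rab11b held at most 2 counts in all. Reads in regions shared with a same-strand gene are counted for neither, as far as the default setting goes, which touches Rab4a, Rab6a, Rab6b, Rab7, Rab11a, Rab26, Rab27a, Rab30, Rab33b, Rab35, Rab39 and Rab43.

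Of 51467 gene identifiers 51274 matched Gencode M21 (GRCm38), from which symbols, coding length and 3′ UTRs were taken, though the authors counted with another Gencode release. Genes with at least 3 CPM in at least 3 of 18 libraries (12705, holding 99.64% of counts) were fitted with limma 3.58.1 voom after TMM scaling (edgeR 4.0.16) in R 4.3.3, as 6 group means, with no block. A gene was called at a two-sided p under 0.05 after Benjamini-Hochberg adjustment over the 12705 genes. Values per library are TMM-scaled CPM, and ratios per gradient add 0.5 CPM. The script was tested on simulated data. Alternatives were DESeq2 1.42.0, edgeR's quasi-likelihood test, other scalings, no filter, equal depth, only the groups compared, removal of a trend on coding length and each gradient left out.

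Fractions of 1 gradient come from 1 lysate, so the gradient number pairs them by design. Deviations from the group means correlated at -0.16 to 0.41 over 18 same-gradient pairs, 7 of them over 0.1. WT and KO gradients of 1 number share no lysate, and their 9 correlations ran from -0.45 to 0.22. Gradients of 1 group are separate gradients, and nothing used here says that they were separate cultures, so p-values measure the spread between gradients. Precision is set by counts, which are lowest in the WT monosome. The RAB genes, roles, RAB machinery and marker lists were chosen with earlier results of these data known. In each comparison every member past the threshold was named where there were at most 20, otherwise the 10 largest per direction. Paralogs that share a number and Rab7, Rab10, Rab14, Rab18, Rab21, Rab25, Rab31 and Rab35 could be named whatever their values, and at most 3 machinery genes per role and direction.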

Additional observations from a re-analysis of the deposited data

Results flagged for a closer look

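Rab11a, the recycling endosome RAB, was the 1 member called in opposite directions in different fractions by limma. KO less WT was 0.46 ± 0.15 (SE, adjusted p = 0.0149) in the monosome and -0.36 ± 0.13 (adjusted p = 0.0266) in the high polysome on the log2 scale, and the difference between these effects, tested as an interaction, was -0.82 ± 0.19 (limma adjusted p = 0.00677). All 3 KO gradients lay above WT in the monosome and below it in the high polysome. With the trend on coding length removed, the 2 effects were 0.25 (adjusted p = 0.141) and -0.18 (adjusted p = 0.222) by limma, and neither was called. The interaction was also lost there (limma adjusted p = 0.138) and without KO gradient 3. Both single-fraction effects were lost without WT gradient 2 or KO gradient 3, and the high-polysome effect without KO gradient 1 and at equal depth.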

How the results depend on the processing

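In WT translation level, 24 of 32 member calls were kept in every setting tried, among them alternatives of scaling, filter, tool and gradients left out. The median was 0.58 with no filter on low counts. In the KO change of translation level no call was kept in every setting. Members lowered numbered 11 with DESeq2 size factors, 13 with library size alone, 12 by the DESeq2 Wald test, 0 with the trend on coding length removed, and 2 to 7 with 1 gradient left out (3 without WT gradient 1, 2 without KO gradient 3). Their median was -0.53 with library size alone, -0.52 with no filter, -0.034 with the trend removed and -0.44 to -0.34 with 1 gradient left out.

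For low polysome over monosome, 3 members were lowered with library size alone and by the DESeq2 Wald test, and the median was 0.12 with the trend removed. With the gradient number as a replicate block, 1 member was lowered there and 7 in translation level, and the block moved no other count of members by over 1.5 times. With the trend removed, 7 members were raised and 10 lowered in the monosome, with a median of -0.021. Without 1 gradient, 2 to 4 were lowered there (3 without WT gradient 3, 2 without KO gradient 2). In the low polysome 4 were lowered at equal depth. In the high polysome 8 were lowered at equal depth, and 8 were raised and 5 lowered with the trend removed, with a median of 0.023, and the median was -0.24 to -0.10 with 1 gradient left out. The trend fit removes what the members share with other genes of their length. The cause of the other shifts was not tested. Depth limits the 13 members under 10 CPM most.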

Other observations

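In WT cells 6 of 9 prenylation and GDI genes, which set RABs on or off membranes, had a translation level below 0 and 3 had one above. Their median was -0.44 and the highest value was 0.99. Of 9 prenylation and GDI genes 5 were lowered in translation level by limma (32.2% of all genes) and 1 was raised (28.9%). No shares were made for genes of like coding length. The lowered genes were led by Chml, a RAB escort protein, at -2.20 ± 0.35 on the log2 scale. Rabggtb and Rabggta, the subunits of RAB geranylgeranyl transferase, were at -1.62 ± 0.15 and -1.28 ± 0.13.

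In the high polysome, 49 of 130 RAB machinery genes were higher in KO (25.3% of all genes) and 17 lower (21.1%), with a median of 0.17. Among effectors 19 of 40 were higher and 5 lower, with a median of 0.33. The 130 machinery genes had a median coding length of 2378 nt, and the length of the effectors alone was not summarised. Protein-coding genes outside the RAB family had a median of 0.24 at 1800 to 2700 nt and 0.32 at 2700 to 4000 nt. Machinery genes were not taken out of these. The shares called were not made for genes of like length.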
